A study of Mus musculus with 34 samples.

Results

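The genes described here are 8 genes of GABA handling in cortical astrocytes, among the 20614 genes of the deposited table. They were chosen by name: the uptake transporter gene Slc6a11, the breakdown genes Abat and Aldh5a1, the amine oxidase gene Maob, the GABA-A receptor subunit genes Gabra2 and Gabrg1, and the GABA-B receptor genes Gabbr1 and Gabbr2. Each symbol matched 1 row of the table, and all 8 passed the filter on low values, 1 TPM in at least 3 libraries. TPM give a gene's share of all transcripts after correction for length, so levels can be compared between genes.

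The study followed astrocytes from early life to old age. The libraries came from cortex of WT male mice at 9 ages, with astrocytes taken out by magnetic isolation. There were 4 libraries at postnatal day 7 (P7), 4 at P14, 3 at P21, 3 at P28, 3 at P60, 5 at 3 months (3m), 5 at 6m, 3 at 12m and 4 at 18m. Whether the libraries of an age are from different animals is not given in the labels, so p-values measure only the spread between libraries, which may be technical.

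GABA is the main inhibitory transmitter of the cortex. Astrocytes clear it from the extracellular space through plasma membrane transporters and degrade it in mitochondria, where GABA transaminase and then succinic semialdehyde dehydrogenase turn it into succinate. Astrocytes can also make GABA from putrescine, a route in which monoamine oxidase B takes part, and they sense GABA through chloride channels of the GABA-A type and through G-protein-coupled GABA-B receptors.

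The 8 genes spanned levels over more than an order of magnitude. Averaged over the 34 libraries, Slc6a11 stood at 234.6 TPM, Maob at 107.4 TPM, Abat at 105.8 TPM, Gabrg1 at 91.1 TPM and Gabbr1 at 79.1 TPM. Gabbr2 at 20.7 TPM, Gabra2 at 19.9 TPM and Aldh5a1 at 8.69 TPM were lower. Between the ages of highest and lowest mean, Maob varied most, by 3.54-fold, and Aldh5a1 least, by 1.43-fold. The age means were lowest at 18m for 4 of the 8 genes (Slc6a11, Abat, Aldh5a1 and Gabbr2), at P7 for 3 (Maob, Gabra2 and Gabrg1) and at P60 for Gabbr1.

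**Figure D1:**
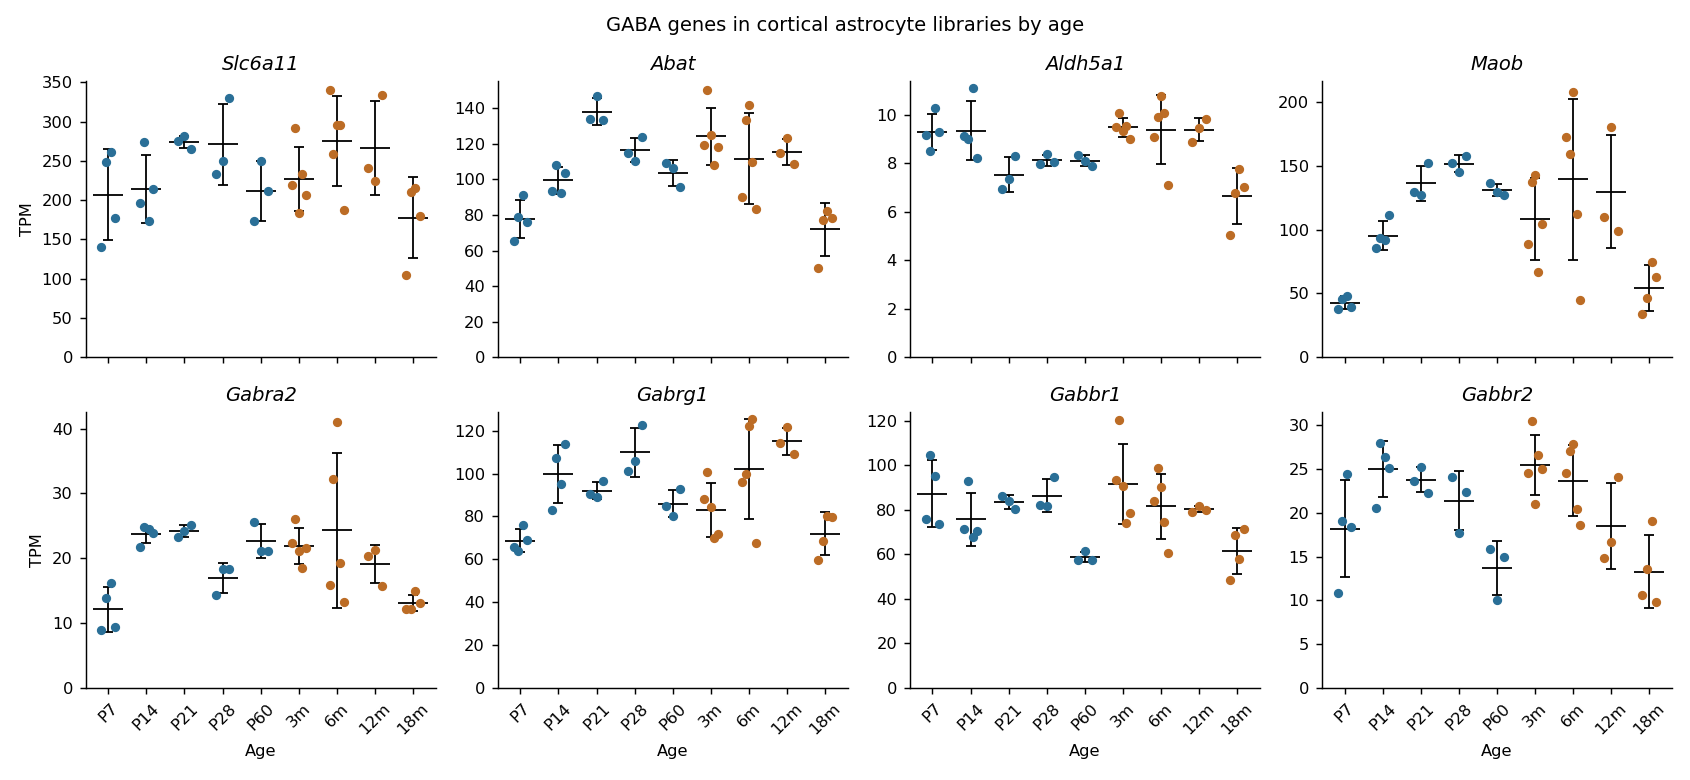
TPM of the 8 genes in each of the 34 libraries, by age from P7 to 18m. Each point is 1 library (blue for ages in postnatal days, orange for ages in months), the long bar is the mean of an age and the whiskers are 1 SD. Maob averages 42.8 TPM at P7 and 54.6 TPM at 18m and at least 95.3 TPM at every age between. The age means of Slc6a11 run from 177.5 TPM at 18m to 275.4 TPM at 6m, with an SD of up to 59.4 TPM within an age.

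Of the 8 genes, 7 differed among the 9 ages in limma's F test at an adjusted p under 0.05, against a background of 63.6% of the 14590 genes tested. Slc6a11 was the exception (adjusted p = 0.0735), although it passed without the 5th library of 6m (adjusted p = 0.0285), after median-of-ratios rescaling of the libraries (adjusted p = 0.0427) and after quantile normalization (adjusted p = 0.017). Gabbr1 did not pass after that rescaling (adjusted p = 0.13). In P60 vs P7, 4 of the 8 were called, where 52.8% of all genes were, 19.5% higher and 33.3% lower: Abat, Maob and Gabra2 rose and Gabbr1 fell. In 18m vs 3m, 6 of the 8 were called, all lower, where 37.5% of all genes were called and 33.4% were called lower. With the number of genes listed at 0 as a covariate, limma called 0 of the 8 in 18m vs 3m, 2 having an unadjusted p under 0.05, and 2.04% of all genes. That number does not overlap between the 18m and 3m libraries, so this fit cannot separate it from age. The SE was wider there for all 8 genes, for Abat 0.27 against 0.14. In 18m vs P7, 2 of the 8 were called, Aldh5a1 and Gabbr1, both lower, where 29.6% of all genes were called and 24.9% were called lower. The counts for P60 vs P7 and 18m vs P7 are thus close to what the shares over all genes would give.

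**Figure D2:**
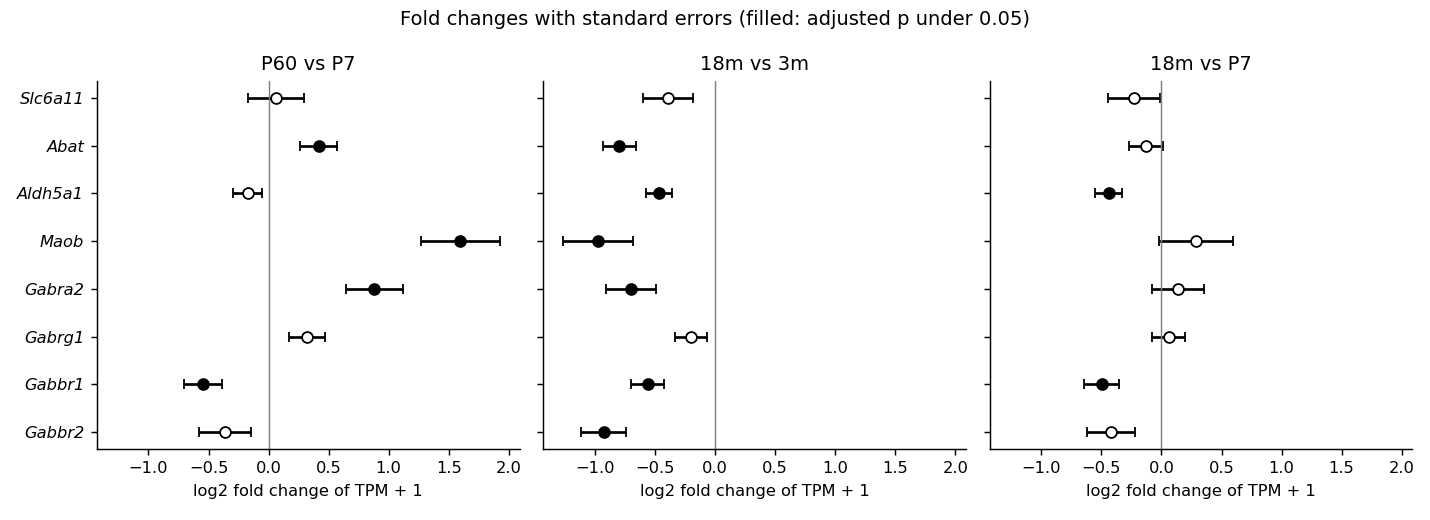
Log2 fold changes of TPM + 1 (horizontal axis) of the 8 genes in P60 vs P7, 18m vs 3m and 18m vs P7, with standard errors as bars. Filled points passed an adjusted p of 0.05 in limma. Maob has the largest rise at P60, and all 8 points lie below 0 for 18m vs 3m.

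Several features of the libraries moved with age. The number of genes listed at 0 fell into 3 ranges, 4109 to 4819 in 14 libraries (P7, P14, 18m and the first and second of 12m), 2854 to 3523 in 9 (P21, P28 and P60) and 1155 to 1704 in 11 (3m, 6m and the third of 12m). Age and range therefore cannot be told apart in P60 vs P7 and 18m vs 3m, while 18m vs P7 and P14 vs P7 lie within the same range. The median log2 fold change of all genes tested was -0.15 in P60 vs P7, -0.24 in 18m vs 3m and -0.20 in 18m vs P7. After rescaling the libraries by the median of ratios it was near 0, and the share of higher genes among those called changed to 56.9% with rescaling, against 36.9% without, in P60 vs P7, to 48.1% against 11.1% in 18m vs 3m and to 54.3% against 15.8% in 18m vs P7.

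The astrocyte label was matched by high levels of the astrocyte list, led by Aldoc at 9050.0 TPM over all libraries, but RNA of other cell types was present and varied. The 13 genes of the neuron list summed to 416.2 to 796.7 TPM at P60, against 114.5 to 142.0 TPM at P7, and 11 of them rose. They summed to 109.8 to 226.1 TPM at 18m, against 224.5 to 718.9 TPM at 3m, and 11 of them fell. The oligodendrocyte list, led by Mbp, summed to 1376.7 to 2568.8 TPM at P60, against 291.4 to 430.8 TPM at P7. The most abundant gene of the neuron list was Map2, at 69.0 TPM over all libraries, and of the other lists Npy at 293.2 TPM (GABAergic neurons) and Olig1 at 161.2 TPM (oligodendrocyte precursors). Vascular, meningeal, ependymal and blood lists were led by Ly6c1 at 850.4 TPM, Vtn at 2198.0 TPM, Dcn at 149.3 TPM, Rarres2 at 522.3 TPM and Hba-a2 at 5125.9 TPM. In P60 vs P7 all 8 ependymal genes rose, and 7 of 10 endothelial and 6 of 8 meningeal genes fell. Of the 10 pericyte and smooth muscle genes 3 rose and 1 fell there, and 0 of the 5 blood genes were called. In P21 vs P14 all 5 blood genes rose, to a mean sum of 47785.0 TPM from 7875.7 TPM. Slc32a1, the vesicular GABA transporter that defines GABAergic neurons, averaged no more than 0.184 TPM at any age. The 12 genes of the GABAergic neuron list summed to 75.4 to 3376.7 TPM at P60, against 64.0 to 211.2 TPM at P7. At 18m they summed to 58.6 to 607.9 TPM, against 53.0 to 1363.4 TPM at 3m. Npy alone made up most of these sums. Its mean was 1138.9 of a mean sum of 1184.8 TPM at P60 and 92.4 of 109.6 TPM at P7. It was 232.5 of 291.5 TPM at 18m and 466.8 of 517.8 TPM at 3m. The mean log2(TPM + 1) of the list was 2.20 at P60, 1.52 at P7, 2.16 at 18m and 2.32 at 3m. Of the 8 tested genes of the list, 2 rose in P60 vs P7, 2 fell in 18m vs 3m and 3 rose in 18m vs P7. In the astrocyte list itself 8 genes rose and 3 fell of 15 in P60 vs P7, and 2 rose and 8 fell in 18m vs 3m. In such bulk libraries, fewer cells of a type and less RNA per cell cannot be told apart.

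Slc6a11 encodes GAT3, the transporter concentrated in astrocyte processes around synapses. The gene lies at chr6:114131241-114249952 on the plus strand of GRCm38. Its level was 173.1, 250.1 and 211.0 TPM in the P60 libraries, against 140.4, 248.9, 260.9 and 177.8 TPM in the P7 libraries. The groups overlapped, and the log2 fold change of 0.06 ± 0.23 (SE) was not called (adjusted p = 0.844). At 18m the libraries held 104.3, 210.4, 215.5 and 180.0 TPM, against 219.7, 292.0, 183.8, 233.6 and 207.0 TPM at 3m. The first 18m library was well below the others, the groups overlapped, and the change of -0.39 ± 0.21 (SE) was not called (adjusted p = 0.132). Against 6m, whose libraries spanned 187.2 to 339.8 TPM, Slc6a11 fell at 18m by 0.66 on the log2 scale (adjusted p = 0.0256). All 8 genes were called lower in 18m vs 6m, where 20.3% of all genes were called and 17.7% were called lower. Of the 8, only Abat had groups that did not overlap, and 18m vs 6m was not fitted under the other settings. As in 18m vs 3m, the libraries of 18m and 6m lie in different ranges of genes at 0, which are confounded with age here. In the astrocyte list 1 gene rose and 8 fell of 15 in 18m vs 6m. The 8 neighbouring pairs in the order of the Slc6a11 age means all had overlapping ranges, which ordering by the means itself makes likely.

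Slc6a13 encodes GAT2, which in brain is best known from the meninges and is on the fibroblast and meningeal marker list used here. It averaged 59.7 TPM at P60 and 165.9 TPM at P7, a log2 fold change of -1.43 ± 0.33 (adjusted p = 0.00103). Slc6a12 encodes the betaine and GABA transporter BGT1, at 1.48 TPM at P60 and 6.47 TPM at P7, and it fell by 1.51 (adjusted p = 0.00252). Beside these falls, the whole fibroblast and meningeal list summed to 252.1 to 320.0 TPM at P60, against 587.0 to 992.6 TPM at P7, and 6 of its 8 genes, Slc6a13 among them, fell. Its part in the falls of Slc6a13 and Slc6a12 was not tested. Slc6a12 fell again in 18m vs 3m, by 1.07 (adjusted p = 0.0157), and both genes were lower in 18m vs P7, with adjusted p = 0.0341 for Slc6a13 and 0.0218 for Slc6a12. In 18m vs 12m Slc6a13 rose by 1.2 on the log2 scale (adjusted p = 0.0131).

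Abat encodes GABA transaminase, the mitochondrial enzyme that removes the amino group of GABA. The gene lies at chr16:8513429-8621568 on the plus strand. It held 109.0, 106.6 and 95.5 TPM at P60, against 65.1, 78.8, 91.5 and 76.3 TPM at P7. Every P60 library was above every P7 library, and Abat rose by 0.42 ± 0.15 on the log2 scale (SE, adjusted p = 0.0259), a ratio of means of 1.33. The call was lost without the first P7 library (0.33, adjusted p = 0.0886), the first P60 library (0.38, adjusted p = 0.0839) or the second P60 library (0.40, adjusted p = 0.0706). It was also lost with the endothelial and pericyte lists (0.42, adjusted p = 0.0793) or the number of genes at 0 (0.42, adjusted p = 0.104) as covariates. With the mean levels of the neuron and oligodendrocyte lists as covariates the estimate was -0.06 (adjusted p = 0.823), so its direction depended on that setting. The highest age mean was at P21, with libraries at 133.9, 146.8 and 133.2 TPM, against 93.7, 108.3, 92.6 and 103.4 TPM at P14. The 2 sets did not overlap, and Abat rose in P21 vs P14 by 0.47 ± 0.15 (adjusted p = 0.0425), a step in which 13.2% of all genes were called and 5.6% were called higher. That call was lost without any 1 of 6 of the 7 libraries (0.42 to 0.49, adjusted p up to 0.163), and remained only without the second P14 library. It was lost too with the neuron and oligodendrocyte lists (0.24, adjusted p = 0.312), the endothelial and pericyte lists (0.36, adjusted p = 0.0992) or the number of genes at 0 (0.47, adjusted p = 0.0889) as covariates.

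At 18m Abat held 50.0, 77.2, 82.0 and 78.3 TPM, against 119.6, 150.3, 125.0, 108.0 and 118.0 TPM at 3m. All 18m libraries were below all 3m libraries. The log2 fold change was -0.80 ± 0.14 (SE, adjusted p = 0.000112), and 18m stood at 0.579 of the 3m mean. The level was also lower than at 6m by 0.62 (adjusted p = 0.00461). The fall from 3m was called with the neuron and oligodendrocyte lists as covariates. It was not called with the number of genes at 0 as a covariate, where the estimate was -0.81 with a wider error (adjusted p = 0.108). At 18m Abat overlapped P7 (65.1 to 91.5 TPM) and was not called against it (-0.13 ± 0.14, adjusted p = 0.501).

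Aldh5a1 encodes succinic semialdehyde dehydrogenase, the next enzyme of the pathway, which makes succinate. The gene lies at chr13:24907579-24937661 on the minus strand. It was the least abundant of the 8 genes, and 2 annotated non-coding genes overlap it on the opposite strand. As the use of strand in counting is not given, reads in those overlaps cannot be assigned with certainty. The size of the overlaps was not measured. Its libraries held 8.36, 8.11 and 7.90 TPM at P60, against 9.17, 8.50, 10.3 and 9.28 TPM at P7. These groups did not overlap, yet the change of -0.17 ± 0.12 (SE) was not called (adjusted p = 0.234). At 18m the libraries held 5.06, 6.76, 7.79 and 7.04 TPM, against 9.49, 10.1, 9.36, 9.54 and 9.02 TPM at 3m. No 18m library reached the lowest 3m library, and Aldh5a1 fell by 0.47 ± 0.11 (adjusted p = 0.00158). It was not called after quantile normalization (-0.11, adjusted p = 0.378), with the number of genes at 0 as a covariate (-0.27, adjusted p = 0.569) or against P60 in place of 3m (-0.26, adjusted p = 0.152), and the estimate was -0.25 after median-of-ratios rescaling (adjusted p = 0.0309). It also fell in 18m vs P7, by 0.44 ± 0.11 (adjusted p = 0.00535), within the same range of genes at 0, and by the same amount in a fit of the libraries of that range only (adjusted p = 0.0162). With median-of-ratios rescaling the 18m vs P7 change was -0.21 (adjusted p = 0.117), against a median of all genes near 0 there, and with quantile normalization it was -0.21 (adjusted p = 0.139).

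The balance of the 2 breakdown genes shifted with age. The ratio of Abat to Aldh5a1 within a library averaged 8.37 at P7, 10.8 at P14 and 18.4 at P21, and then 14.3 at P28, 12.8 at P60, 13.1 at 3m, 11.8 at 6m, 12.3 at 12m and 10.7 at 18m. The 3 P21 libraries, at 16.0 to 19.9, were above all others, while the P7 libraries, at 7.10 to 9.27, overlapped the lowest P14 library only. A ratio within a library shows unequal change of its genes and not which of them changed.

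Maob encodes monoamine oxidase B, an enzyme of the outer mitochondrial membrane that oxidises amines, including acetylated putrescine on the astrocytic route to GABA. The gene lies at chrX:16709282-16817366 on the minus strand. Its P60 libraries held 136.6, 129.7 and 126.8 TPM, against 37.6, 45.9, 48.2 and 39.5 TPM at P7. All P60 libraries were far above all P7 libraries. Maob rose by 1.60 ± 0.33 on the log2 scale (SE, adjusted p = 0.000506), a ratio of means of 3.06. With the neuron and oligodendrocyte lists as covariates the estimate was 0.90 ± 0.43 (adjusted p = 0.127).

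Much of that rise was already there at P14, when the libraries held 85.2, 93.0, 91.7 and 111.2 TPM, all above every P7 library. In P14 vs P7, where 11.8% of all genes were called and 3.28% were called higher, 3 of the 8 genes were called, all higher: Maob, Gabra2 and Gabrg1. Maob rose by 1.14 ± 0.31 (adjusted p = 0.0199), and in a fit of only the libraries in the same range of genes at 0 by the same amount (adjusted p = 0.00307). Its call was lost without the first P7 library (1.08, adjusted p = 0.0557), the fourth P7 library (1.10, adjusted p = 0.0566) or the fourth P14 library (1.06, adjusted p = 0.0605), and with the neuron and oligodendrocyte lists as covariates (0.92, adjusted p = 0.0513).

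In the older libraries Maob was more scattered. The 18m libraries held 33.9, 46.6, 74.7 and 63.1 TPM, against 88.5, 137.3, 142.9, 67.0 and 104.2 TPM at 3m. The third 18m library was above the fourth 3m library, so the groups overlapped. Maob fell by 0.98 ± 0.29 (SE, adjusted p = 0.0104), and without the first 18m library by 0.78, which was not called (adjusted p = 0.0668). With the neuron and oligodendrocyte lists as covariates the estimate was -0.76 ± 0.38 (adjusted p = 0.115), and with the number of genes at 0 it was -1.09 (adjusted p = 0.354). The 6m libraries spread most, with 172.2, 159.3, 207.6, 112.2 and 44.8 TPM. Against P7 the 18m level was not called (0.29 ± 0.31, adjusted p = 0.485).

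Maoa, which encodes the related monoamine oxidase A, lies 21.5 kb from Maob on the opposite strand and took a different course. It averaged 25.7 ± 3.57 TPM at P60 (SD, n = 3) and 39.6 ± 3.03 TPM at P7 (SD, n = 4), and it fell by 0.61 ± 0.15 (adjusted p = 0.00133). The ratio of Maob to Maoa averaged 1.08 at P7, 2.52 at P14, 4.62 at P21, 4.51 at P28, 5.17 at P60, 3.24 at 3m, 4.03 at 6m, 3.30 at 12m and 2.11 at 18m. Each P14 library was above each P7 library in this ratio, and each P21 library above each P14 library. From 3m on the ranges were wide, from 1.23 to 5.93 at 6m. Maoa also fell in 18m vs 3m, by 0.34 (adjusted p = 0.0349), in 18m vs P7, by 0.56 (adjusted p = 0.00281), and in 18m vs 12m, by 0.60 (adjusted p = 0.00688).

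Of the 12 genes for GABA synthesis and breakdown, members included, 3 rose and 2 fell in P60 vs P7, and 1 rose and 6 fell in 18m vs 3m. Their median log2 fold changes were 0.07 in P60 vs P7 and -0.43 in 18m vs 3m, against -0.15 and -0.24 over all genes. Aldh1a1, an aldehyde dehydrogenase that can oxidise the aldehyde of GABA, averaged 136.3 ± 15.4 TPM at P60 (SD, n = 3) and 61.6 ± 4.33 TPM at P7 (SD, n = 4), and rose by 1.13 ± 0.19 (adjusted p = 7.83e-05). Its highest age mean was 192.7 ± 4.61 TPM at P21 (SD, n = 3), the age at which Abat was highest too. It fell to 69.4 ± 7.41 TPM at 18m (SD, n = 4), against 186.0 ± 60.2 TPM at 3m (SD, n = 5), a change of -1.35 ± 0.17 (adjusted p = 2.3e-06). Sat1, which acetylates polyamines, was the gene of this list that rose in 18m vs 3m, with 622.6 ± 61.6 TPM at 18m (SD, n = 4) and 514.2 ± 47.9 TPM at 3m (SD, n = 5), a change of 0.28 ± 0.09 (adjusted p = 0.0181). Sat1 had its highest mean at P14, 780.8 TPM, and rose there over P7 by 0.66 (adjusted p = 0.000172).

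**Figure D3:**
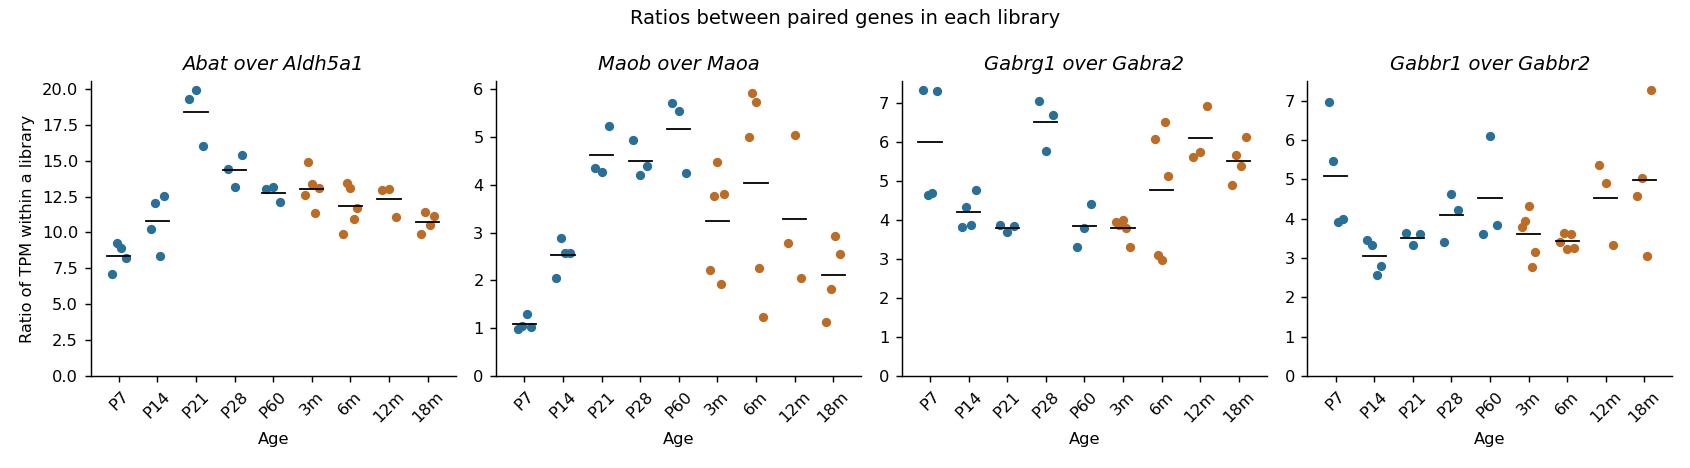
Ratios of TPM between genes of a pair in each library, by age: Abat over Aldh5a1, Maob over Maoa, Gabrg1 over Gabra2 and Gabbr1 over Gabbr2. Each point is 1 library (blue for ages in days, orange for ages in months) and the bar is the mean of an age. The ratio of Abat to Aldh5a1 is highest at P21 and that of Maob to Maoa lowest at P7.

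The GABA-A receptors are pentamers, most often of alpha, beta and gamma subunits. Gabra2 encodes an alpha and Gabrg1 a gamma subunit. They are neighbours in a gene cluster on mouse chromosome 5, Gabrg1 at chr5:70751047-70842617 and Gabra2 at chr5:70957597-71095849, both on the minus strand and 115.0 kb apart. Gabra4 follows 473.9 kb beyond Gabra2, and Gabrb1 overlaps the start of Gabra4 by 196 bp on the opposite strand. As the use of strand in counting is not given in the sources used here, reads in that overlap cannot be assigned between Gabra4 and Gabrb1. RefSeq promoters, 250 bases before to 50 after the start, were at hand for 6 of the 8 genes, all but Abat and Maob. Those of Gabra2 and Gabrg1 are printed because these neighbouring genes were called together in P14 vs P7. Both are on the minus strand of GRCm38.p6, at chr5:71095800-71096099 for Gabra2 and at chr5:70842568-70842867 for Gabrg1, with motif matches in capitals.
Gabra2: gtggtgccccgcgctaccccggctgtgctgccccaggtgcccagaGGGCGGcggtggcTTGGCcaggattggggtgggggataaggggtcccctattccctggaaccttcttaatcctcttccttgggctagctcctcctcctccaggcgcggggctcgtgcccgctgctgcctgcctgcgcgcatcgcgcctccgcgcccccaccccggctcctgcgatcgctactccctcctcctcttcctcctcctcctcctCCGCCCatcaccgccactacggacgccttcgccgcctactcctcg
Gabrg1: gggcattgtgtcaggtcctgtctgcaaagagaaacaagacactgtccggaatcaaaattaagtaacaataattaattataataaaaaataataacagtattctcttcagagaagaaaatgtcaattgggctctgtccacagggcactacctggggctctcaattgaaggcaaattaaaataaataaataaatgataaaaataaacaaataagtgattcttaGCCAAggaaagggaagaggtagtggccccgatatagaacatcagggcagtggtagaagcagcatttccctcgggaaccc

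The promoters differ in composition, with 70.0% G and C for Gabra2 and 38.3% for Gabrg1. The motifs searched on both strands were the GC box GGGCGG, the NFI motif TTGGC, the cAMP response element TGACGTCA and the TATA box TATAAA. The NFI motif used here is only a part of a full NFI site. The Gabra2 window held 2 GC boxes and 1 NFI motif, and the Gabrg1 window 1 NFI motif. Over 32851 mouse promoters of the same length, 35.7% held the GC box, 46.7% the NFI motif, 1.79% the cAMP response element and 13.6% the TATA box. These matches describe letters in the windows only.

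Gabra2 held 25.6, 21.1 and 21.1 TPM at P60, against 8.93, 13.8, 16.2 and 9.47 TPM at P7. The groups did not overlap, and Gabra2 rose by 0.88 ± 0.24 on the log2 scale (SE, adjusted p = 0.00316), a ratio of means of 1.87. With the neuron and oligodendrocyte lists as covariates the estimate was 0.18 ± 0.28 (adjusted p = 0.669). At P14 the libraries already held 21.8, 24.8, 24.5 and 23.9 TPM, all above every P7 library, with a rise of 0.95 ± 0.22 (adjusted p = 0.00791). At 18m they held 12.2, 12.1, 14.9 and 13.1 TPM, against 22.3, 26.0, 21.1, 18.5 and 21.6 TPM at 3m. Again the groups did not overlap, and Gabra2 fell by 0.70 ± 0.21 (adjusted p = 0.0092). That fall was not called with the neuron and oligodendrocyte lists as covariates (-0.22, adjusted p = 0.494), after median-of-ratios rescaling (-0.46, adjusted p = 0.0825) or after quantile normalization (-0.44, adjusted p = 0.118), nor with the number of genes at 0 as a covariate (-0.89, adjusted p = 0.267). The 18m libraries lay within the range of P7 and were not called against them (0.14 ± 0.22, adjusted p = 0.661). The 6m libraries were the most scattered, from 13.2 to 41.0 TPM.

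Gabrg1 changed less in proportion. It held 84.8, 80.1 and 92.7 TPM at P60, against 65.6, 64.0, 76.2 and 69.1 TPM at P7. The P60 libraries were all higher, but the difference of 0.32 ± 0.15 (SE) was not called (adjusted p = 0.0758). It was called after median-of-ratios rescaling (0.50, adjusted p = 0.00334) and after quantile normalization (0.48, adjusted p = 0.00588), with array weights (0.30, adjusted p = 0.0161) and in a fit of these ages only (0.32, adjusted p = 0.00847). At P14 the libraries held 83.1, 107.5, 95.2 and 113.9 TPM, all above every P7 library, and Gabrg1 rose by 0.53 ± 0.14 (adjusted p = 0.0176). This call was lost without the first P7 library (0.51, adjusted p = 0.0504), the second P7 library (0.49, adjusted p = 0.0501), the second P14 library (0.49, adjusted p = 0.0566) or the fourth P14 library (0.46, adjusted p = 0.0647). At 18m the libraries held 59.7, 68.4, 80.0 and 79.9 TPM, against 88.2, 100.9, 84.4, 70.0 and 71.6 TPM at 3m. The groups overlapped, and the change of -0.20 ± 0.13 was not called (adjusted p = 0.238). The highest age means were at 12m, 115.1 ± 6.29 TPM (SD, n = 3), and at P28, 109.9 ± 11.3 TPM (SD, n = 3).

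Gabrg1 was more abundant than Gabra2 in every library, with a ratio of 4.89 ± 1.30 (SD, n = 34). The ratio averaged 5.99 at P7, 4.20 at P14, 3.80 at P21, 6.50 at P28, 3.84 at P60, 3.79 at 3m, 4.76 at 6m, 6.10 at 12m and 5.51 at 18m. At P28 it was 5.76 to 7.06, above all libraries of P14, P21 and P60.

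**Figure D4:**
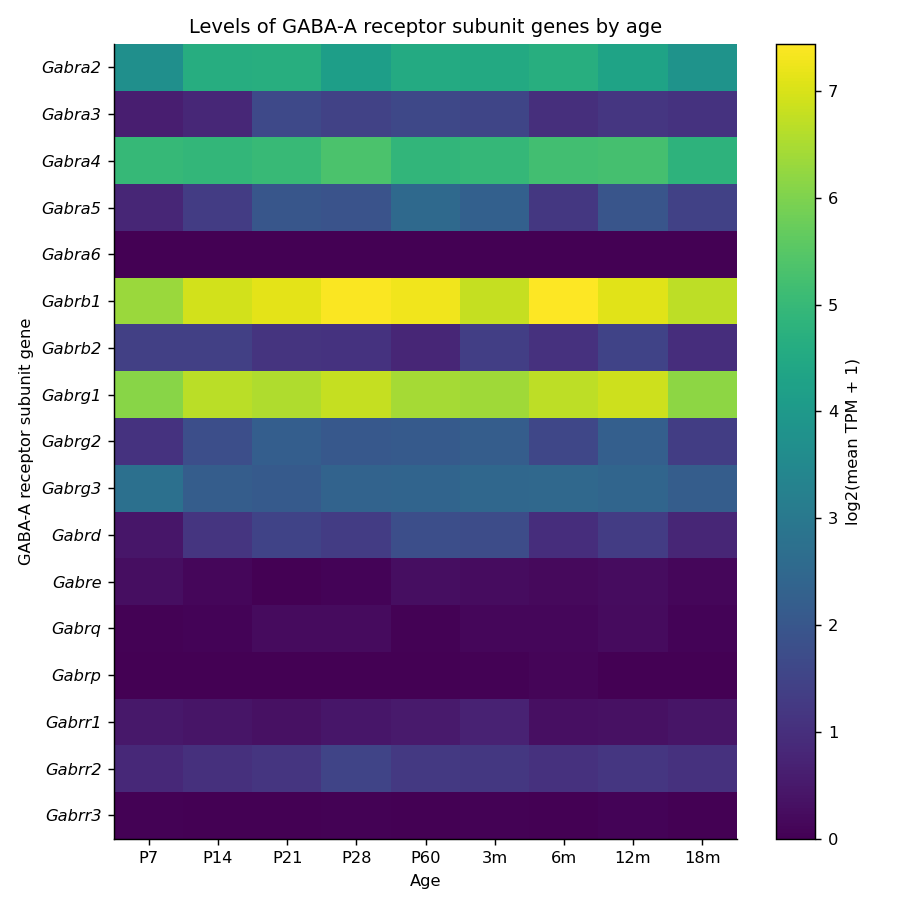
Heat map of GABA-A receptor subunit genes (down) by age (across), with log2(mean TPM + 1) of each age as colour. Gabrb1, Gabrg1, Gabra4 and Gabra2 are bright at every age, and the other genes shown have age means of at most 5.71 TPM.

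Among the 17 other GABA-A subunit genes, only Gabrb1 and Gabra4 were above 10 TPM in the mean of every age. Gabrb1, a beta subunit gene, averaged 154.7 ± 7.19 TPM at P60 (SD, n = 3) and 79.1 ± 11.1 TPM at P7 (SD, n = 4), and it rose by 0.97 ± 0.23 (adjusted p = 0.0013). It was not called in 18m vs 3m (-0.07 ± 0.20, adjusted p = 0.799), with 102.5 ± 17.6 TPM at 18m (SD, n = 4) and 109.0 ± 22.6 TPM at 3m (SD, n = 5). Gabra4, an alpha subunit gene, ranged in its age means from 26.8 TPM at 18m to 39.6 TPM at P28 and was not called in P60 vs P7 (adjusted p = 0.644) or 18m vs 3m (adjusted p = 0.385). Gabrg3, a gamma subunit gene, had its highest mean at P7, 5.71 TPM, and did not pass the F test over ages (adjusted p = 0.188). The rest stayed below 5 TPM in every age mean. Gabra5, an alpha subunit gene known from neurons, averaged 4.78 TPM at P60 and 0.73 TPM at P7 and rose (adjusted p = 0.000436). It overlaps another gene on the opposite strand.

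Of the 11 tested subunit genes outside the 8, 7 rose and 1 fell in P60 vs P7, and 0 rose and 4 fell in 18m vs 3m. Their median log2 fold change was 0.95 in P60 vs P7 and -0.49 in 18m vs 3m, against -0.15 and -0.24 over all genes. The neuron list given above moved the same way in both comparisons, and its part in these shifts was not tested. Of the 12 genes for GABA-A receptor partners, 5 rose and 3 fell in P60 vs P7, and 4 fell in 18m vs 3m, with medians of 0.25 and -0.13. Dbi, whose peptide products bind the benzodiazepine site, was by far the most abundant gene of the pathway lists, at 7833.7 ± 962.6 TPM at P60 (SD, n = 3) and 12817.8 ± 1060.1 TPM at P7 (SD, n = 4). It fell by 0.71 ± 0.22 (adjusted p = 0.00838). Gabarap, a trafficking partner, fell by 0.25 (adjusted p = 0.0254), with 379.5 TPM at P60 and 450.5 TPM at P7. Lhfpl4, which links the receptor to synaptic adhesion proteins, stood at 3.64 TPM at 18m and 7.45 TPM at 3m and fell by 0.91 ± 0.18 (adjusted p = 0.000455).

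The GABA-B receptor works as a pair: the Gabbr1 product binds GABA, and the Gabbr2 product carries the pair to the surface and couples it to G proteins. Gabbr1 lies at chr17:37045966-37075067 on the plus strand and Gabbr2 at chr4:46662305-46991873 on the minus strand. Gabbr1 held 57.5, 61.5 and 57.3 TPM at P60, against 75.8, 104.6, 95.3 and 73.6 TPM at P7. All P60 libraries were lower than all P7 libraries, and Gabbr1 fell by 0.55 ± 0.16 on the log2 scale (SE, adjusted p = 0.00507). After median-of-ratios rescaling the estimate was -0.37 (adjusted p = 0.0514), and with the neuron and oligodendrocyte lists as covariates it was -0.88 (adjusted p = 0.00224). The neighbouring ages were not low: the P28 libraries held 82.1, 81.9 and 94.8 TPM and the 3m libraries 93.6, 120.5, 90.6, 74.1 and 78.7 TPM. Gabbr1 was not called in P60 vs P28 (-0.54 ± 0.17, adjusted p = 0.087), although the groups did not overlap. The same fall was called in a fit of the libraries of that range of genes at 0 only (-0.54, adjusted p = 0.0065), in a fit of these ages only (-0.54, adjusted p = 0.0139), with array weights (-0.50, adjusted p = 0.0153) and with the neuron and oligodendrocyte lists as covariates (-0.61, adjusted p = 0.0348). P60 had the lowest age mean, and Gabbr1 rose in 3m vs P60 by 0.61 ± 0.15 (adjusted p = 0.00871).

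Gabbr2 was also low at P60. Its P60 libraries held 15.9, 10.1 and 15.0 TPM, against 10.9, 19.1, 24.4 and 18.4 TPM at P7. These groups overlapped and the change of -0.36 ± 0.22 (SE) was not called (adjusted p = 0.156), but it was without the first P7 library (-0.58, adjusted p = 0.0235), with array weights (-0.48, adjusted p = 0.03) and with the number of genes at 0 as a covariate (-0.70, adjusted p = 0.0439). The 3m libraries held 24.6, 30.5, 21, 26.6 and 25.0 TPM, all above every P60 library, and Gabbr2 rose in 3m vs P60 by 0.87 ± 0.21 (adjusted p = 0.00659). Gabbr1 and Gabbr2 were the only 2 of the 8 called in that step, in which 10.2% of all genes were called and 8.26% were called higher. The Gabbr2 call was lost without the second P60 library (0.68, adjusted p = 0.078) and with the endothelial and pericyte lists as covariates (0.69, adjusted p = 0.134), and the Gabbr1 call after median-of-ratios rescaling (0.44, adjusted p = 0.0619). P60 and 3m are neighbours in age but lie in different ranges of genes at 0, and with that number as a covariate neither call held (Gabbr1 0.57, adjusted p = 0.112, and Gabbr2 0.56, adjusted p = 0.257).

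At 18m Gabbr1 held 48.6, 68.5, 58.0 and 71.2 TPM, all below the 3m libraries given above, and it fell by 0.56 ± 0.14 (adjusted p = 0.00252). The estimate was -0.31 after median-of-ratios rescaling (adjusted p = 0.0788) and -0.45 with the neuron and oligodendrocyte lists as covariates (adjusted p = 0.0512), and -0.48 with the number of genes at 0 as a covariate (adjusted p = 0.388). Gabbr2 held 10.6, 13.6, 19.1 and 9.79 TPM at 18m, all below its 3m libraries, and it fell by 0.93 ± 0.19 (adjusted p = 0.000545), to 0.520 of the 3m mean. With the number of genes at 0 as a covariate the Gabbr2 estimate was -0.35 and was not called (adjusted p = 0.681). Set against P60 in place of 3m, neither was called at 18m, where 13.8% of all genes were: the changes were 0.05 ± 0.16 for Gabbr1 (adjusted p = 0.868) and -0.06 ± 0.22 for Gabbr2 (adjusted p = 0.896). The falls of these 2 genes at 18m thus depend on the young adult age used. Of the 8 genes, 3 were called in 18m vs P60, all lower. They were Abat (-0.55, adjusted p = 0.0194), Maob (-1.31, adjusted p = 0.0108) and Gabra2 (-0.75, adjusted p = 0.0336). The libraries of P60 and 18m also lie in different ranges of genes at 0. In 18m vs P7 Gabbr1 fell by 0.50 ± 0.14 (adjusted p = 0.0114), all 18m libraries being below all P7 libraries. That call was lost without the second P7 library (-0.41, adjusted p = 0.0537) or the first 18m library (-0.39, adjusted p = 0.0607), after median-of-ratios rescaling (-0.24, adjusted p = 0.275) and after quantile normalization (-0.33, adjusted p = 0.116). Gabbr2 was not called in 18m vs P7 (-0.42 ± 0.20, adjusted p = 0.107), but was without the first P7 library (-0.63, adjusted p = 0.0194) or the third 18m library (-0.60, adjusted p = 0.0259), and with array weights (-0.47, adjusted p = 0.0315).

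Gabbr1 exceeded Gabbr2 in every library, by a ratio of 4.05 ± 1.12 (SD, n = 34). The ratio was lowest at P14, 3.04 ± 0.43 (SD, n = 4), and 5.09 ± 1.45 at P7 (SD, n = 4), with all P14 libraries below all P7 libraries. Of the auxiliary subunit genes, Kctd16, whose product binds the receptor and shapes its signalling, averaged 7.31 ± 1.27 TPM at P60 (SD, n = 3) and 1.16 ± 0.28 TPM at P7 (SD, n = 4), and it rose by 1.94 ± 0.29 (adjusted p = 2.68e-05). It fell by 1.48 ± 0.26 in 18m vs 3m (adjusted p = 0.000135), with 1.86 TPM at 18m and 6.99 TPM at 3m. The neuron list moved the same way in both comparisons, and its part in the Kctd16 changes was not tested. Kctd8 and Kctd12, the other genes of this kind, had age means of at most 1.06 TPM for Kctd8 and 7.07 TPM for Kctd12 and did not pass the F test (adjusted p = 0.49 for Kctd8 and 0.715 for Kctd12).

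The last step between neighbouring ages led to 18m. In 18m vs 12m, 4 of the 8 were called, all lower, where 20.2% of all genes were called and 18.6% were called lower. Abat fell by 0.70 ± 0.15 (SE, adjusted p = 0.0049), Aldh5a1 by 0.45 ± 0.12 (adjusted p = 0.0125), Maob by 1.24 ± 0.33 (adjusted p = 0.0119) and Gabrg1 by 0.68 ± 0.15 (adjusted p = 0.00524). Beside these falls, 7 of the 15 genes of the astrocyte list fell and 0 rose (median -0.47), and 5 of the 13 genes of the neuron list fell and 0 rose (median -0.98), where the median of all genes was -0.21. All 4 genes were called with the neuron and oligodendrocyte lists as covariates, and the part of the astrocyte list was not tested. With the endothelial and pericyte lists as covariates Abat was called and Aldh5a1 (-0.49, adjusted p = 0.0658), Maob (-1.20, adjusted p = 0.074) and Gabrg1 (-0.53, adjusted p = 0.103) were not. The Aldh5a1 call was lost with median-of-ratios rescaling (-0.23, adjusted p = 0.108) and with quantile normalization (-0.15, adjusted p = 0.382), and with the rescaling Abat was at -0.45 (adjusted p = 0.035) and Gabrg1 at -0.43 (adjusted p = 0.03). Maob lost its call without the second 12m library (-0.98, adjusted p = 0.0647) or the first 18m library (-1.04, adjusted p = 0.0672), and Aldh5a1 without the first 18m library (-0.34, adjusted p = 0.0732). Fitted on these 7 libraries alone, limma called 0 genes, with 3611 at an unadjusted p under 0.05, 7 of the 8 among them. Slc6a11 was not called (-0.62, adjusted p = 0.0608) but was without the second (-0.72, adjusted p = 0.0454) or the third 18m library (-0.73, adjusted p = 0.0348). Gabbr2 was called without the third 18m library (-0.64, adjusted p = 0.0315) and Gabbr1 without the fourth (-0.47, adjusted p = 0.0425).

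The first and second 12m libraries lie in the same range of genes at 0 as 18m, which gives this step a comparison within a range. For 7 of the 8 genes every 18m library was below both of these 12m libraries, where this held for 30.8% of all genes, and for Gabbr2 the libraries overlapped. Abat held at most 82.0 TPM at 18m, against 115.0 and 123.2 TPM in these 12m libraries. Gabrg1 held at most 80.0 TPM at 18m, against 114.5 and 121.6 TPM. Gabra2 held at most 14.9 TPM at 18m, against 20.4 and 21.2 TPM. In a fit of the libraries of that range, chosen after seeing the data, 17.9% of all genes were called. Abat (-0.75, adjusted p = 0.0105), Maob (-1.41, adjusted p = 0.00397), Gabra2 (-0.64, adjusted p = 0.0303) and Gabrg1 (-0.72, adjusted p = 0.00473) were called lower, and Aldh5a1 was not (-0.42, adjusted p = 0.0734). Slc6a11 (-0.44, adjusted p = 0.297), Gabbr1 (-0.40, adjusted p = 0.116) and Gabbr2 (-0.27, adjusted p = 0.502) were not called either. This fit shares all of its 18m and 12m libraries with the comparison above, so its values are not independent of those.

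Over the 8 steps between neighbouring ages, 10 of the 64 pairs of gene and step were called, or 1 to 4 genes in each of 4 steps, where 8.24% of all pairs of gene and step were called. None of the 8 was called by limma in P28 vs P21, P60 vs P28, 6m vs 3m or 12m vs 6m, where 0, 3, 1 and 0 of them had an unadjusted p under 0.05 and 0.0206%, 1.12%, 9.32% and 0.0548% of all genes were called. P60 vs P28 lies within 1 range of genes at 0, and in a fit of the libraries of that range, where 7.92% of all genes were called, Gabbr1 (given above), Gabrg1 (-0.35, adjusted p = 0.0389) and Gabbr2 (-0.62, adjusted p = 0.043) were called lower. With array weights, where 2480 of the 14590 genes were called, the same 3 were too. In 6m vs 3m Gabrg1 was called without the 5th library of 6m (0.42, adjusted p = 0.0213). Of the 64 neighbouring pairs in the order of the age means over the 8 genes, 3 had ranges that did not overlap. That order was set by the means themselves and puts ages of similar level side by side, so overlap was likely in advance. The share over all genes was not computed.

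Single libraries stood apart for many of the 8 at once. The first 18m library was the lowest of all 34 for 6 of the 8 genes, all but Gabra2 and Gabbr2. The 5th library of 6m was the lowest of its age for all 8 genes, with 44.8 TPM of Maob, against 112.2 to 207.6 TPM in the other 6m libraries. For how many of all genes these libraries were lowest was not counted, so these counts are not shown to be particular to the 8.

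The courses of the 8 genes over the 9 age means, on the log2(TPM + 1) scale, were alike to different degrees. These correlations are descriptions over 9 points that share libraries. Pearson's r was 0.88 for Abat and Maob, 0.85 for Slc6a11 and Abat, 0.82 for Maob and Gabrg1, and 0.79 for Gabbr1 and Gabbr2. It was 0.05 for Gabra2 and Gabbr1 and 0.13 for Aldh5a1 and Maob. Of 11060 genes compared, those of most similar course were Ak3, Emsy and Zhx3 for Slc6a11 (r from 0.967 to 0.969), and R3hdm1, Ndrg3 and Ubxn2a for Abat (0.972 to 0.981). They were Tmf1, Cdadc1 and Armh3 for Aldh5a1 (0.960 to 0.972), and Acsl6, Prex2 and Kcnj14 for Maob (each 0.996). They were Rnd2, Npas2 and Thbs4 for Gabra2 (0.901 to 0.915), and Zfp563, Serinc1 and Inpp1 for Gabrg1 (0.978 to 0.990). For the GABA-B genes they were Raver1, Snap29 and Arih1 beside Gabbr1 (0.983 to 0.988), and Cnr1, St3gal3 and Galnt1 beside Gabbr2 (0.956 to 0.975). With so many genes and 9 points, high values arise readily.

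Of the 45 other genes on the 5 pathway lists, 38 passed the filter on low values. In P60 vs P7, 14 of the 38 rose and 8 fell, in 18m vs 3m 1 rose and 13 fell, and in 18m vs P7 2 rose and 7 fell. The genes called were 57.9% of the 38 in P60 vs P7, 36.8% in 18m vs 3m and 23.7% in 18m vs P7, near the 52.8%, 37.5% and 29.6% of all genes called. Their median log2 fold changes were 0.13 in P60 vs P7, -0.35 in 18m vs 3m and -0.08 in 18m vs P7, where those of the 8 genes were 0.19, -0.63 and -0.18 and those of all genes -0.15, -0.24 and -0.20.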

How the data were processed

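Polyadenylated RNA was measured by RNA-seq in 34 libraries. The authors deposited TPM, which correct for transcript length and sum to the same total in every library. The submitters' processing notes list genome build mm10, RSEM 1.2.28, STAR 2.7.1a and Trim Galore 0.6.4 and do not give the use of strand. TPM keep no read counts, so depth is unknown and no counting interval is given.

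The analysis used log2(TPM + 1), on which fold changes of weakly expressed genes are understated. Genes reaching 1 TPM in 3 or more libraries, 14590 in all, were fitted with limma 3.58.1 in R 4.3.3 (trend and robust settings), with 1 mean per age over the 34 libraries. Benjamini-Hochberg adjustment covered all of these genes, and calls were made where the adjusted p was under 0.05. The fit was tested on simulated data. Contrasts were P60 vs P7, 18m vs 3m, 18m vs P7 and the neighbouring steps, beside an F test of all ages, with 18m vs 6m and 18m vs P60 as alternatives to 18m vs 3m. Alternatives changed the pseudocount, filter, scaling, weights, covariates, libraries and replicate block.

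The members and the gene lists were chosen with earlier results of these data known. Named genes are the 8 members, the 3 genes of smallest F-test p of each pathway list, the other transporters, the GABA-A subunit genes with an age mean of at least 5 TPM, the 3 genes of most similar profile per member and the most abundant genes of cell type lists. Some genes that this rule names are not reported here. Positions are from GENCODE mouse release M21 (GRCm38), matched by identifier for all 8 members, and promoter sequences are from RefSeq.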

Additional observations from a re-analysis of the deposited data

Results flagged for a closer look

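In groups of 4 or more libraries, a value was set apart where its gap to the nearest of the others was too large a part of the group's range (Dixon's test at the 95% level). Of 40 such groups, 2 held a value of this kind, and chance alone gives about 1 in 20. Abat stood at 50.0 TPM in the first 18m library, against 77.2 to 82.0 TPM in the others, a gap of 0.851 of the range. Gabbr1 stood at 93.1 TPM in the second P14 library, against 67.6 to 71.4 TPM in the others, a gap of 0.850 of the range.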

How the results depend on the processing

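Of 2064 values of a single gene under another setting, 1950 were unchanged in call, 66 lost a call, 46 gained one and 2 called values turned. Of the 1950, 676 were called in the main fit and 1274 were not. Direction was followed only for genes called in the main fit, and the F test has none. Values not called could change sign and still count as unchanged, as Slc6a11 in 18m vs 3m did (-0.39, and 0.32 with the number of genes at 0 as a covariate). The 2 that turned were Abat in P60 vs P7 (-0.063 with the neuron and oligodendrocyte lists as covariates) and Gabbr1 in 18m vs 3m (0.051 with P60 in place of 3m). The number of the 8 genes called in P60 vs P7, 4 in all, became 1 with the neuron and oligodendrocyte lists as covariates. In 18m vs 3m, 6 became 3 with those covariates, where 4777 of the 14590 genes were called. The count became 0 with the number of genes at 0 as a covariate, where 2 had an unadjusted p under 0.05. That number is confounded with age in 18m vs 3m. In 18m vs P7, 2 became 0 in limma after median-of-ratios rescaling and after quantile normalization, where 2 had an unadjusted p under 0.05 in each. Over all genes, 2920 were called after that rescaling and 2739 after quantile normalization. Over the neighbouring steps, 10 became 16 with array weights and 5 with the endothelial and pericyte lists as covariates. Calls over all genes moved too. With array weights they went from 1728 to 6008 in P14 vs P7 and from 2940 to 1427 in 18m vs 12m. With the endothelial and pericyte lists they went from 1925 to 2023 in P21 vs P14 and from 2940 to 1784 in 18m vs 12m. The share of all pairs of gene and step was not computed for these settings. The cause was not tested. Without 1 library, the counts ranged from 3 to 4 in P60 vs P7, from 5 to 6 in 18m vs 3m, from 1 to 3 in 18m vs P7, from 7 to 8 in the F test and from 7 to 13 over the steps. The count in 18m vs P7 was 1 without the second P7 or the first 18m library and 3 without the first P7 or the third 18m library.

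Over all genes, the calls in P60 vs P7 numbered 7697, but 3598 with the neuron and oligodendrocyte lists and 5050 with the endothelial and pericyte lists as covariates. In 18m vs 3m they numbered 5476, but 297 with the number of genes at 0 as a covariate and 3471 at the fewest without 1 library. In 18m vs P7 they numbered 4316, but 2739 after quantile normalization and 6739 with array weights. In P14 vs P7 they numbered 1728, but 6008 with array weights, 4834 in a fit of those ages only and 2890 in the libraries of that range. In P21 vs P14 they numbered 1925, but 4946 with array weights. In 3m vs P60 they numbered 1487, but 3206 with array weights and 496 with the number of genes at 0. In 18m vs 12m they numbered 2940, but 1165 after quantile normalization, 1427 with array weights, and 0 in a fit of those ages only.

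The replicate numbers were not found to pair libraries: over 119 pairs with the same number at different ages, the deviations from the age means correlated by 0.00226 on average (-0.44 to 0.461), with 26 pairs over 0.1. A fit with the replicate number as a block called 5 of the 8 genes in P60 vs P7, 8 in 18m vs 3m, 2 in 18m vs P7, 8 in the F test and 13 over the steps, where it called 53.0%, 43.5%, 33.4%, 68.5% and 9.97% of all genes (of pairs of gene and step for the last). TPM keep no depth, so the precision of low values could not be set.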
